A study of Homo sapiens with 18 samples.

Results

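GRB10 (ENSG00000106070), DDC (ENSG00000132437), CAMK2N1 (ENSG00000162545) and ACKR3 (ENSG00000144476) were followed through an RNA sequencing study of the prostate cancer line LNCaP. They were taken by gene symbol, as genes known to be repressed by androgen, and make 4 of the 22027 features that the inhibitor and siRNA tables hold together. All 4 had a row in both tables and all 4 passed the filter on low values. LNCaP is an established human line from a prostate cancer metastasis, and its cells respond to androgen. The cells of every group grew in RPMI medium with 10% fetal bovine serum. In the inhibitor experiment they received 10 uM of UPF1069, olaparib or veliparib, or the vehicle DMSO, for 24 h. In the knockdown experiment they were transfected with siPARP1-A, siPARP1-B, siPARP2-A, siPARP2-B or the control siRNA siNC for 72 h. The letters A and B name different siRNAs against the same gene. The 9 groups hold 2 libraries each, 18 in all, and the series calls them biological duplicates of the same line. The inhibitor table is in CPM, the reads of a gene scaled to a common library size, and the siRNA table is in a like unit, written here as normalised RPM. The tables were normalised apart, so levels and tests stay within a table.

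Androgen switches on genes such as KLK3 (prostate-specific antigen) and TMPRSS2 in prostate cells and lowers the transcripts of others. GRB10 encodes an adaptor that binds the activated insulin and IGF1 receptors and restrains their signalling, and the gene is imprinted in some tissues. DDC encodes aromatic L-amino acid decarboxylase, which makes dopamine from L-DOPA and serotonin from 5-hydroxytryptophan. CAMK2N1 encodes a small protein that binds and inhibits the kinase CaMKII. ACKR3, formerly CXCR7, encodes an atypical chemokine receptor that binds CXCL12 and CXCL11, recruits arrestin and takes its ligands up. PARP1 and PARP2 are nuclear enzymes that add ADP-ribose chains to proteins, above all at DNA breaks. Olaparib, a phthalazinone, and veliparib, a benzimidazole carboxamide, inhibit both enzymes, and UPF1069 is known as an inhibitor with a preference for PARP2. No library was given or deprived of androgen, so repression by androgen was not measured here.

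GRB10 and DDC are adjacent protein-coding genes on chromosome 7, read from the same strand. CAMK2N1 is on chromosome 1 and ACKR3 on chromosome 2. RefSeq's table of promoters, on build GRCh38.p14, matched 2 of the 4 genes, with 5 windows for GRB10 and 2 for DDC. The 250 bases before a start site are shown for both DDC starts and for the GRB10 start farthest upstream, since these neighbours are compared below. All 3 are on the minus strand, and capitals mark CG pairs.
DDC, chr7:50565406-50565655: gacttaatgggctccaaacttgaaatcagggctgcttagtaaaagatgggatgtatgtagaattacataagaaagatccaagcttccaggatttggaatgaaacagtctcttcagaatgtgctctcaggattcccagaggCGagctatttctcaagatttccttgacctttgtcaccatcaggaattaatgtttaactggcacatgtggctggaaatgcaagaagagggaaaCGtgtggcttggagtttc
DDC, chr7:50561072-50561321: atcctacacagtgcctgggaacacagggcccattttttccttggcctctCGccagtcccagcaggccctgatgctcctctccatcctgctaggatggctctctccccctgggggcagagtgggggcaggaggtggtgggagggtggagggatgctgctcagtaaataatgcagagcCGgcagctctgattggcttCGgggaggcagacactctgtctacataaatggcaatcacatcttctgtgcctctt
GRB10, chr7:50793454-50793703: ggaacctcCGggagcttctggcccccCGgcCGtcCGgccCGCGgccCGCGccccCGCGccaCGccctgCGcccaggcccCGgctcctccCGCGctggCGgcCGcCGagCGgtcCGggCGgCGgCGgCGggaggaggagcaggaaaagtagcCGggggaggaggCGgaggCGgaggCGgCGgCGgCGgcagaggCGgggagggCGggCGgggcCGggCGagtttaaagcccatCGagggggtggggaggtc
The DDC sequences hold 2 and 3 CG pairs and 42.4% and 58.0% G or C, whereas the GRB10 sequence holds 37 CG pairs and 81.6% G or C. The 5 GRB10 windows were unlike one another, with 2 to 40 CG pairs and 30.4% to 81.6% G or C, so the sequence shown does not stand for all of them. Over all 35116 promoter windows of the table the medians are 11 CG pairs and 58.0%. The androgen response element, a palindrome of AGAACA then 3 bases of any kind then TGTTCT, was searched on both strands of the 300-base windows, which add the first 50 bases after the start. It occurs in 1 of all windows (0.00285%). A single arm, AGAACA or TGTTCT, which overlaps it, occurs in 14.8% of windows, and the forkhead motif TGTTTAC or GTAAACA occurs in 3.42%. None of the 7 windows of DDC and GRB10 holds any of these strings. The match is a description of these letters in these windows and says nothing of binding.

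Depth was 26.4 M to 35.7 M recovered reads per inhibitor library and 15.5 M to 18.6 M per siRNA library. The 4 genes had 627 to 18751 reads per library, far above the 3 reads that mark the detection limit. The targeted transcripts were low in the libraries labelled for them. PARP1 averaged 5.22 and 9.02 normalised RPM with siPARP1-A and siPARP1-B, against 465 with siNC. PARP2 averaged 2.81 and 1.40 with siPARP2-A and siPARP2-B, against 27.4 with siNC. The other enzyme's transcript was lower too with all 4 siRNAs. PARP1 averaged 402 normalised RPM with siPARP2-A (log2 fold change -0.21, limma adjusted p = 0.0194) and 153 with siPARP2-B (-1.60, adjusted p = 7.66e-16). PARP2 averaged 21.5 with siPARP1-A (-0.34, adjusted p = 0.0417) and 18.9 with siPARP1-B (-0.51, adjusted p = 0.00429). All 8 luminal prostate and LNCaP markers were present in every group, while 1 of 6 basal, 2 of 9 neuroendocrine, 3 of 8 stromal and 1 of 8 immune and endothelial markers reached a mean of 1. The summed level of the 8 luminal markers was 3803 to 3812 with siPARP1-A, 5351 to 5379 with siPARP1-B, 3492 to 3544 with siPARP2-A and 2534 to 2549 with siPARP2-B, against 5659 to 5910 with siNC, and 3409 to 3426 CPM with olaparib, against 4657 to 4743 CPM with DMSO. Immune and endothelial markers summed to 3.63 to 3.75 with siPARP1-A and 8.23 to 8.57 with siPARP2-B, against 1.82 to 2.24 with siNC. Stromal markers summed to 8.28 to 8.41 with siPARP1-A and 10.766 to 12.003 with siPARP2-B, against 3.8959 to 3.9049 with siNC. KLK3 is 1 of the 8 luminal markers, and its own fall with olaparib and siPARP2-B is given below, so these sums also carry changes of single genes. Every library came from the LNCaP line, so the sums describe transcripts in that line and are not counts of other cell types. The part of the marker sums in the results below was not tested. In bulk RNA fewer cells expressing a gene and less RNA per cell cannot be told apart.

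All 4 genes rose with olaparib, 3 of them rose by less with UPF1069, and none rose with veliparib. The siRNAs did not move the 4 genes as a group: CAMK2N1 was higher than in siNC cells with each of the 4 siRNAs, DDC was lower with each, and GRB10 and ACKR3 changed sign between siRNAs. The 3 inhibitor comparisons share the DMSO libraries and the 4 siRNA comparisons share the siNC libraries. A gene is called changed at a limma adjusted p below 0.05, adjusted over all 13337 or 12701 genes tested. With olaparib 4 of 4 genes were called higher, against 25.8% of all genes tested higher, 26.8% lower and 52.5% in either direction. With UPF1069 3 of 4 were called higher, against 10.3% of all genes higher, 14% lower and 24.3% in either direction; a common median for all libraries turned the split of all calls, 1372 higher and 1873 lower, into 1659 and 1431. With veliparib 1 of 4 was called lower, against 23.2% lower, 17.2% higher and 40.4% in either direction. With siPARP1-A 2 were called higher and 2 lower, against 25.5% of all genes higher, 28.9% lower and 54.4% in either direction. With siPARP1-B 1 was called higher and 2 lower, against 16.4% higher, 23.9% lower and 40.4% in either direction; the split of all calls, 2088 higher and 3037 lower, became 2757 and 2221 with a common median. With siPARP2-A 2 were called higher and 1 lower, against 24.5% higher, 24.9% lower and 49.4% in either direction. With siPARP2-B 3 were called higher and 1 lower, against 30.9% higher, 35.2% lower and 66.1% in either direction. Against backgrounds of this size a call of 1 gene says little, and the sizes given below carry the description. The same shares are the background for the counts of the gene lists below.

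**Figure D1:**
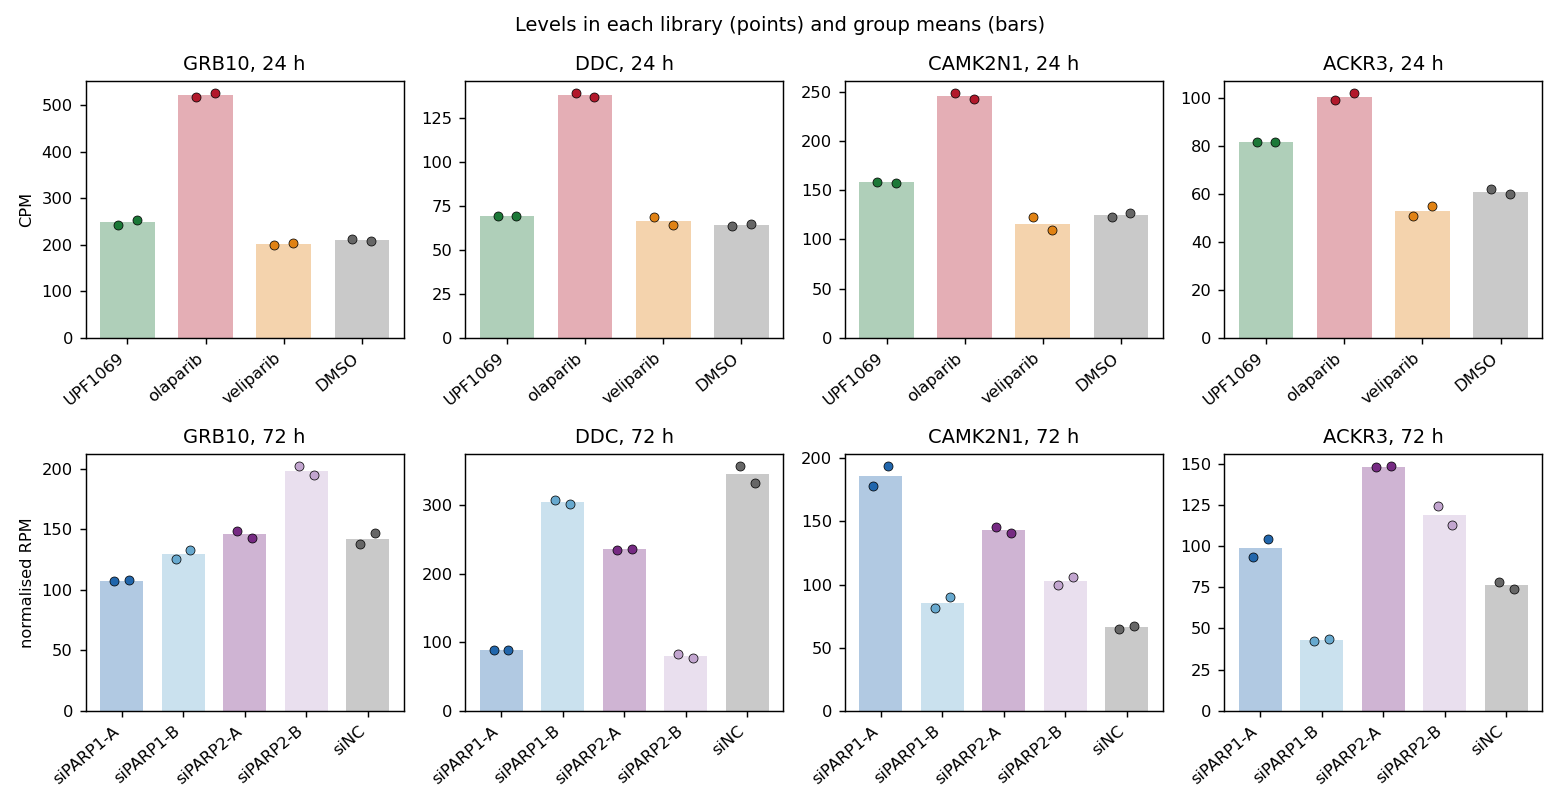
Levels of the 4 genes in each library (points) with group means (bars), in CPM for the inhibitor table (upper row) and normalised RPM for the siRNA table (lower row). Olaparib stands above DMSO for every gene, and the siRNA groups are in a different order for each gene.

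**Figure D2:**
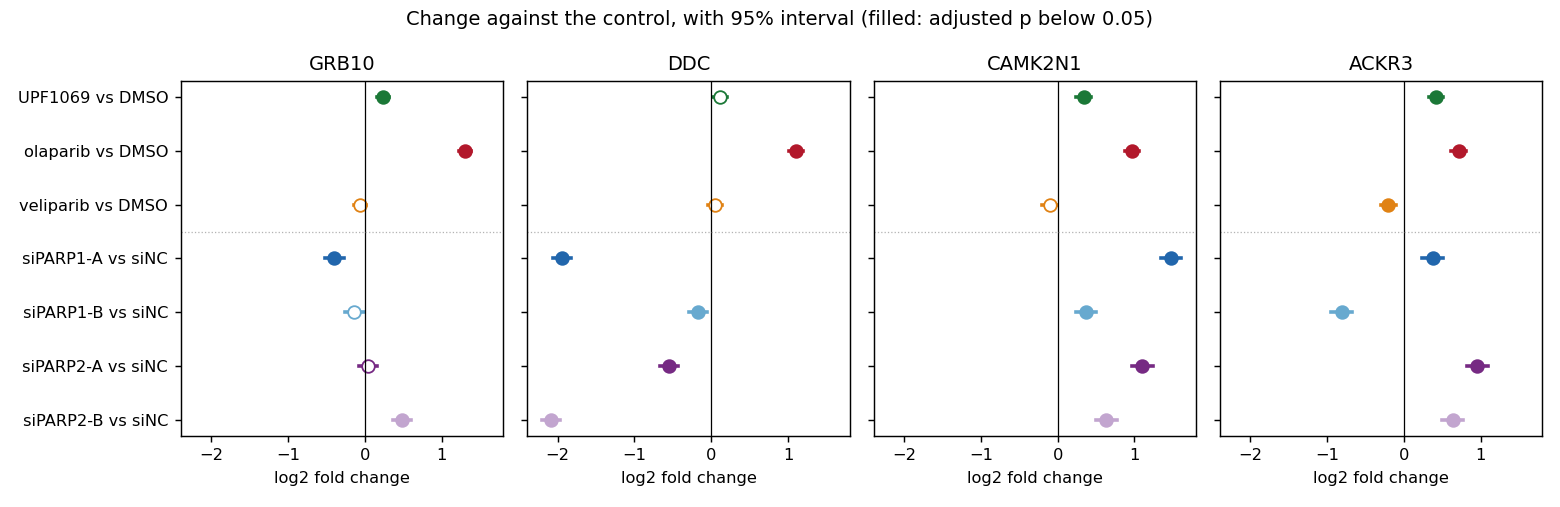
Log2 fold change of each gene against DMSO (3 inhibitors) or siNC (4 siRNAs), with the 95% interval from limma; filled points passed an adjusted p of 0.05. GRB10 spans -0.40 to 1.30, DDC -2.09 to 1.10, CAMK2N1 -0.10 to 1.48 and ACKR3 -0.81 to 0.95.

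GRB10 was most abundant with olaparib, at 2.48 times its level in DMSO cells. Its values were 517 and 525 CPM with olaparib, 243 and 253 CPM with UPF1069 and 199.5 and 203.5 CPM with veliparib, against 213 and 208 CPM with DMSO. Both olaparib libraries and both UPF1069 libraries were above both DMSO libraries, and both veliparib libraries were just below them. With olaparib the log2 fold change was 1.30 (SE 0.037, limma adjusted p = 6.84e-18), the 29th largest rise of the 13337 genes tested. With UPF1069 it was 0.24 (SE 0.037, adjusted p = 6.80e-05), a gain of 17.8%. With veliparib it was -0.06, with a 95% interval of -0.14 to 0.01 (adjusted p = 0.194), and it passed without replicate 2 of veliparib (adjusted p = 0.0389).

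In the knockdown experiment GRB10 fell with siPARP1-A and rose with siPARP2-B. It had 107 and 108 normalised RPM with siPARP1-A and 126 and 132.5 with siPARP1-B. It had 148 and 143 with siPARP2-A and 202 and 195 with siPARP2-B, against 137 and 147 with siNC. The siPARP2-A libraries overlapped those of siNC, and those of the other siRNAs did not. The log2 fold change was -0.40 (SE 0.058, adjusted p = 2.85e-06) with siPARP1-A and 0.48 (SE 0.058, adjusted p = 8.50e-08) with siPARP2-B. With siPARP1-B it was -0.14 (adjusted p = 0.0644) and with siPARP2-A 0.04 (adjusted p = 0.627), neither of which passed. The siPARP1-A fall ranked 2246th among the falls and the siPARP2-B rise 2129th among the rises of 12701 genes. From high to low the order was siPARP2-B, siPARP2-A, siNC, siPARP1-B and siPARP1-A, and siNC was not called different from its neighbours on either side. Without replicate 1 of siNC the siPARP1-B difference passed (-0.18, adjusted p = 0.0378).

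Of 20 other genes of insulin and IGF receptor signalling, all tested, 6 rose and 9 fell with olaparib, and their median log2 fold change was -0.07, against 0.00 over all genes. IGF1R, the IGF1 receptor that GRB10 binds, fell with olaparib to 10.2 ± 0.123 CPM, against 30.4 ± 1.33 CPM with DMSO (SD, n = 2 each; log2 fold change -1.48, limma adjusted p = 4.98e-15). It fell too with siPARP2-B to 8.38 ± 2.20 normalised RPM, against 53.7 ± 3.53 with siNC (SD, n = 2 each; -2.56, adjusted p = 3.56e-16). Its log2 fold change was -1.27 with siPARP1-A and -1.89 with siPARP2-A, both called, and 0.08 with siPARP1-B, not called. GRB14, an adaptor of the same family, rose with olaparib (0.67, adjusted p = 0.000118) and most with siPARP2-B, to 7.41 ± 0.0447 normalised RPM, against 1.98 ± 0.130 with siNC (SD, n = 2 each; limma adjusted p = 1.65e-09). INSR, the insulin receptor, had log2 fold changes of 0.20 with UPF1069, -0.16 with olaparib and -0.57 with siPARP1-A, all called. IRS1, a substrate that carries the signal on, fell by 0.38 with olaparib and rose by 1.35 with siPARP2-B. The list had 1 higher and 2 lower with UPF1069, 6 and 8 with veliparib, 6 and 7 with siPARP1-A, 6 and 4 with siPARP1-B, 2 and 7 with siPARP2-A and 6 and 8 with siPARP2-B.

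DDC rose with olaparib and fell with every siRNA, by the widest span of the 4 genes. Its values were 139 and 137 CPM with olaparib, 69.5 and 69.55 CPM with UPF1069 and 68.5 and 64.2 CPM with veliparib, against 63.4 and 64.5 CPM with DMSO. The olaparib libraries stood far above all others, the UPF1069 libraries lay just above DMSO, and the veliparib libraries overlapped DMSO. With olaparib the log2 fold change was 1.10 (SE 0.044, limma adjusted p = 3.29e-15), a 2.16-fold rise that ranked 53rd of 13337. With UPF1069 it was 0.12 with a 95% interval of 0.03 to 0.21, which missed the threshold (adjusted p = 0.0529) but passed it under 6 of the alternative settings given in the closing section and without either veliparib library. With veliparib it was 0.05, with an interval of -0.04 to 0.14 (adjusted p = 0.370). That value was 0.0973 without replicate 2 of veliparib, where it passed (adjusted p = 0.0427), and 0.00614 without replicate 1.

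In the knockdown experiment DDC dropped to about the same low level with siPARP1-A and siPARP2-B. It had 88.4 and 88.7 normalised RPM with siPARP1-A and 308 and 301 with siPARP1-B. It had 235 and 236 with siPARP2-A and 82.9 and 77.4 with siPARP2-B, against 356 and 332 with siNC. Every siRNA library was below both siNC libraries. The log2 fold change was -1.95 (SE 0.057, adjusted p = 5.15e-19) with siPARP1-A, the 50th largest fall of 12701 genes. It was -2.09 (SE 0.057, adjusted p = 3.16e-20) with siPARP2-B and -0.55 (SE 0.057, adjusted p = 2.17e-08) with siPARP2-A, the 161st and 1165th largest falls. With siPARP1-B it was -0.18 (adjusted p = 0.0157), a call that was lost without replicate 1 of siNC (adjusted p = 0.139), without replicate 2 of siPARP1-B (adjusted p = 0.0948) and with each library rescaled to the same median (-0.11, adjusted p = 0.151). From high to low the order was siNC, siPARP1-B, siPARP2-A, siPARP1-A and siPARP2-B, and each neighbour differed from the next at the threshold, the lowest pair by 0.14 (adjusted p = 0.0295).

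The genes around DDC in monoamine synthesis, transport and breakdown were tested in 12 cases of 23 listed. Of these, 3 rose and 2 fell with olaparib, 1 and 4 with UPF1069, 1 and 6 with veliparib, 8 and 4 with siPARP1-A, 4 and 5 with siPARP1-B, 6 and 3 with siPARP2-A, and 5 and 4 with siPARP2-B. Monoamine oxidase A (MAOA), which breaks down the amines that DDC makes, fell with olaparib to 494 ± 4.15 CPM, against 814 ± 8.57 CPM with DMSO (SD, n = 2 each; log2 fold change -0.72, limma adjusted p = 1.08e-13). MAOA fell with siPARP2-B too (-0.73, adjusted p = 8.86e-12), where DDC fell. GCH1, the first enzyme of the pathway to the cofactor tetrahydrobiopterin, had a log2 fold change of -1.74 with siPARP2-B and 0.63 with siPARP2-A, both called. Of 9 neuroendocrine markers 2 were tested, and ENO2 (neuron-specific enolase) had log2 fold changes of 0.21 with UPF1069, 0.33 with olaparib, -0.26 with veliparib, -1.15 with siPARP1-A and 0.32 with siPARP2-B, all called. ENO2 and DDC moved in the same direction with olaparib and siPARP1-A and in opposite directions with siPARP2-B. SYP (synaptophysin) was called lower with veliparib (-0.33, adjusted p = 0.0406) and siPARP2-A (-0.47, adjusted p = 0.0272) and higher with siPARP1-B (0.65, adjusted p = 0.00367). SYP averaged 1.81 CPM with veliparib, against 2.51 CPM with DMSO. That call was lost with edgeR (adjusted p = 0.0718), with limma on a common median (adjusted p = 0.0613) and with DESeq2 (adjusted p = 0.209). With DESeq2 the SYP call with siPARP2-A and the ENO2 call with siPARP2-B were lost too. By limma in the main fit the neuroendocrine list counted 1 higher and 0 lower with UPF1069, olaparib, siPARP1-B and siPARP2-B, 0 and 2 with veliparib, and 0 and 1 with siPARP1-A and siPARP2-A.

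The protein-coding neighbours on the other sides of DDC and GRB10 are FIGNL1, an ATPase of DNA repair that lies beside DDC, and COBL, an actin nucleator that lies beside GRB10. Both were tested. With olaparib their log2 fold changes were 0.04 (not called) and 0.15 (limma adjusted p = 0.0315), against 1.10 for DDC and 1.30 for GRB10. The COBL call was lost with DESeq2. With siPARP1-A, siPARP1-B and siPARP2-B FIGNL1 was called lower (-0.63, -0.37 and -1.69), as DDC was (-1.95, -0.18 and -2.09), while COBL was not called (0.09, -0.21 and 0.01). With siPARP2-A FIGNL1 rose by 0.48 and COBL fell by 0.58, where DDC fell by 0.55. FIGNL1 was called higher with veliparib (0.15), and neither gene was called with UPF1069. The other 5 genes listed for this stretch of the chromosome had no values under these symbols and were not tested.

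CAMK2N1 rose with olaparib, with UPF1069 and with each of the 4 siRNAs. Its values were 248 and 242 CPM with olaparib, 159 and 157 CPM with UPF1069 and 123 and 109 CPM with veliparib, against 123 and 127 CPM with DMSO. The olaparib and UPF1069 libraries were above DMSO, and those of veliparib overlapped it. The log2 fold change was 0.97 (SE 0.046, limma adjusted p = 6.89e-14) with olaparib, a 1.97-fold rise. It was 0.34 (SE 0.046, adjusted p = 9.85e-06) with UPF1069. With veliparib it was -0.10 with an interval of -0.20 to -0.01 (adjusted p = 0.0735), which passed with a correction for GC content (-0.13, adjusted p = 0.0154) and without replicate 1 of veliparib (-0.19, adjusted p = 3.31e-06).

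In the knockdown experiment CAMK2N1 was lowest in the control cells. It had 178 and 194 normalised RPM with siPARP1-A and 81.2 and 90.2 with siPARP1-B. It had 145 and 141 with siPARP2-A and 99.98 and 106 with siPARP2-B, against 64.7 and 67.5 with siNC. No library of an siRNA against PARP1 or PARP2 fell within the siNC range, and the siRNA groups did not overlap one another. The log2 fold change was 1.48 (SE 0.065, adjusted p = 1.37e-15) with siPARP1-A, a 2.81-fold rise. It was 1.10 (SE 0.065, adjusted p = 7.47e-13) with siPARP2-A, the 64th largest rise of 12701 genes. With siPARP2-B it was 0.63 (adjusted p = 5.07e-09) and with siPARP1-B 0.37 (adjusted p = 7.29e-05). The siPARP2-B and siPARP1-B rises ranked 1493rd and 1400th, and the siPARP1-A rise 84th.

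Genes around CaMKII changed in both directions in the groups where CAMK2N1 rose. Of 15 genes for CaM kinases, calmodulins and related phosphatases tested in the inhibitor table, 4 rose and 5 fell with olaparib, 4 and 2 with UPF1069, and 0 and 5 with veliparib. Of 14 tested in the siRNA table, 3 rose and 7 fell with siPARP1-A, 1 and 7 with siPARP1-B, 2 and 6 with siPARP2-A, and 3 and 9 with siPARP2-B. CAMK2D, a CaMKII subunit, rose with siPARP1-A to 128 ± 4.90 normalised RPM, against 52.7 ± 1.95 with siNC (SD, n = 2 each; log2 fold change 1.26, limma adjusted p = 7.16e-14). CAMK2D fell with siPARP2-A (-0.34) and was not called with olaparib (0.01). CAMK2G, another subunit, rose with UPF1069 (0.15, adjusted p = 0.0310) and fell with siPARP2-A (-0.43) and siPARP2-B (-0.24). CAMK2B, also a subunit, rose with UPF1069 (0.34, adjusted p = 0.000883) and fell with olaparib (-0.23, adjusted p = 0.00737) and siPARP1-A (-0.58, adjusted p = 0.000479). CAMKK2, a CaM kinase kinase that is itself induced by androgen, fell with olaparib to 85.6 ± 1.08 CPM, against 179 ± 1.49 CPM with DMSO (SD, n = 2 each; -1.05, adjusted p = 5.85e-16). CAMK1D, a kinase of the CaMKI family, rose with olaparib (1.33), UPF1069 (0.70) and siPARP2-B (1.66), all called. CAMK2N2, the paralog of CAMK2N1, passed the filter in the inhibitor table alone and fell with veliparib to 1.27 ± 0.0751 CPM, against 2.26 ± 0.280 CPM with DMSO (SD, n = 2 each; -0.52, adjusted p = 0.00174).

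ACKR3 rose with olaparib and UPF1069, fell with veliparib, and had opposite signs with the PARP1 siRNAs. Its values were 99.1 and 102 CPM with olaparib, 81.8 and 81.8 CPM with UPF1069 and 51.0 and 54.8 CPM with veliparib, against 62.0 and 60.1 CPM with DMSO. The 4 groups did not overlap, and each differed from its neighbour in the order at the threshold. The log2 fold change was 0.71 (SE 0.046, limma adjusted p = 1.51e-11) with olaparib. It was 0.42 (SE 0.046, adjusted p = 5.96e-07) with UPF1069, the largest UPF1069 effect of the 4 genes, at 34.0% above DMSO. With veliparib it was -0.20 (SE 0.046, adjusted p = 0.00122), 13.3% lower than with DMSO.

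In the knockdown experiment ACKR3 was high with both PARP2 siRNAs. It had 93.4 and 104 normalised RPM with siPARP1-A and 42.4 and 43.3 with siPARP1-B. It had 148 and 148 with siPARP2-A and 124 and 113 with siPARP2-B, against 77.9 and 74.2 with siNC. The siPARP1-B libraries alone were below siNC, and no 2 groups overlapped. The log2 fold change was 0.95 (SE 0.067, adjusted p = 2.09e-11) with siPARP2-A and 0.63 (SE 0.067, adjusted p = 8.87e-09) with siPARP2-B. It was 0.37 (SE 0.067, adjusted p = 4.71e-05) with siPARP1-A and -0.81 (SE 0.067, adjusted p = 6.76e-10) with siPARP1-B. The rises ranked 105th of 12701 genes with siPARP2-A, 1496th with siPARP2-B and 2074th with siPARP1-A. The siPARP1-B fall ranked 245th among the falls. From high to low the order was siPARP2-A, siPARP2-B, siPARP1-A, siNC and siPARP1-B, and each differed from the next at the threshold.

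The ligand CXCL12 and its receptor CXCR4 were at low levels in these cells. Other genes around ACKR3 changed in both directions, as did genes over the whole tables. Of 19 genes of its ligand and arrestin axis, 9 were tested in each table. Its ligand CXCL12 averaged 0.0734 CPM with olaparib and 0.0493 CPM with DMSO, both under the 3-read limit of 0.0841 to 0.113 CPM. CXCR4, the signalling receptor for CXCL12, averaged 0.544 CPM with olaparib and 1.02 CPM with DMSO. Neither gene passed the filter. CXCL11, the other ligand, averaged 19.8 ± 0.92 normalised RPM with siPARP2-B, against 0.327 ± 0.19 with siNC (SD, n = 2 each), and was not called with the other 3 siRNAs. The siNC mean was under the filter mean of 1 and near the 3-read limit of 0.169 to 0.207 normalised RPM. The high siPARP2-B libraries count toward the filter, so the p-value of that rise is not given. CXCL11 is among the 6 genes counted as higher with siPARP2-B below. ADM, the peptide adrenomedullin that ACKR3 can also take up, rose with olaparib (log2 fold change 1.30, limma adjusted p = 7.91e-09) and siPARP2-B (1.45, adjusted p = 3.74e-07). GRK2, the kinase that phosphorylates activated receptors, was called lower in all 7 comparisons, with log2 fold changes of -0.19 with siPARP1-A to -1.09 with siPARP2-B. Its siPARP1-A call was lost with a common median for all libraries (adjusted p = 0.0732) and with DESeq2 (adjusted p = 0.0511). CALCRL, a receptor for ADM, fell with olaparib (-0.61) and rose with all 4 siRNAs, most with siPARP1-B (1.61). The list had 2 higher and 2 lower with UPF1069, 1 and 5 with olaparib, 0 and 3 with veliparib, 3 and 1 with siPARP1-A, 2 and 2 with siPARP1-B, 2 and 1 with siPARP2-A and 6 and 2 with siPARP2-B.

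**Figure D3:**
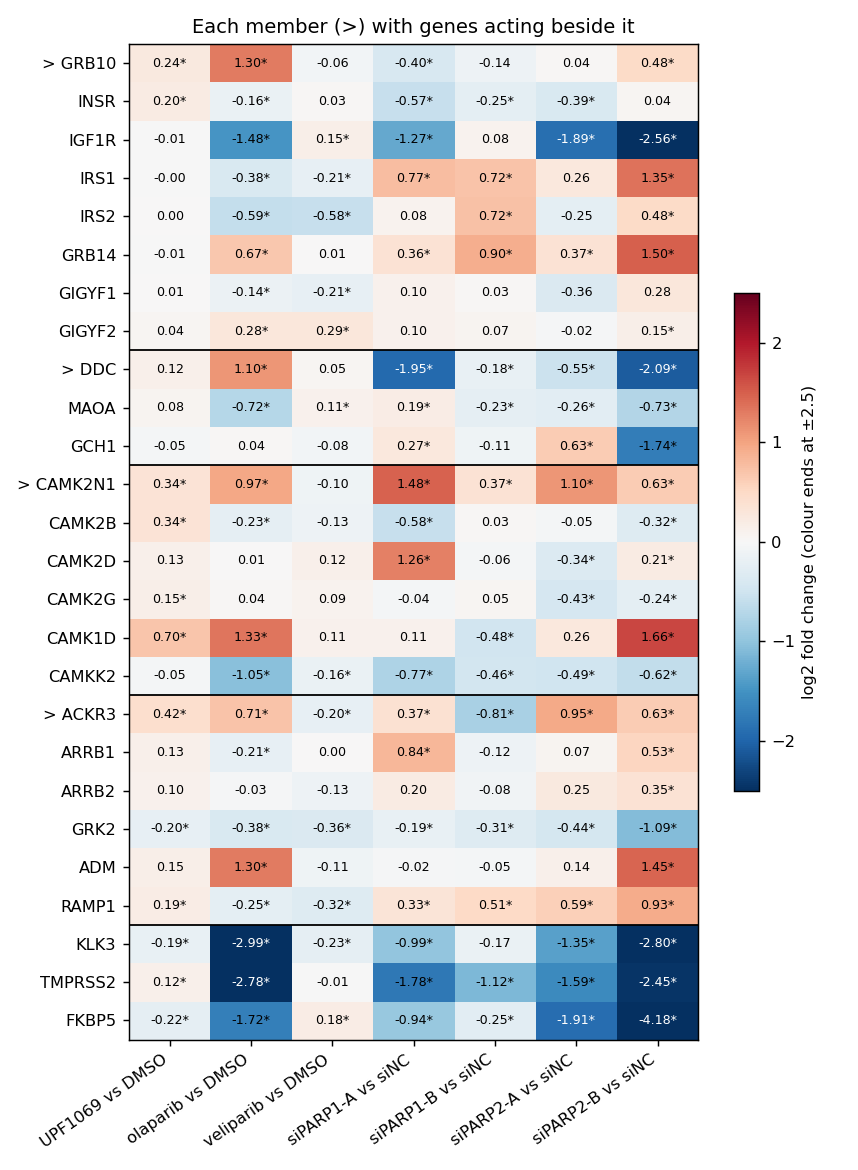
Log2 fold changes of each member and of genes that act beside it, with 3 androgen-induced genes at the bottom, in the 7 comparisons with a control; an asterisk marks a limma adjusted p below 0.05. IGF1R is at -1.48 where GRB10 is at 1.30 with olaparib, and at -2.56 where GRB10 is at 0.48 with siPARP2-B.

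The inhibitors were compared with each other at the same dose and time, in 3 pairs for each of the 4 genes, with p-values adjusted over all genes and the 3 pairs together. The shares of all genes called rest on adjustment within each pair. UPF1069 and olaparib differed for 4 of 4 genes, all lower with UPF1069, against 27% of all genes lower, 24.2% higher and 51.2% in either direction. The log2 difference was -1.07 for GRB10, -0.98 for DDC, -0.63 for CAMK2N1 and -0.29 for ACKR3, with limma adjusted p from 3.29e-16 to 1.27e-05. UPF1069 and veliparib differed for 3 genes, all higher with UPF1069, against 25.9% of all genes higher, 24.9% lower and 50.8% in either direction. The differences were 0.30 for GRB10, 0.44 for CAMK2N1 and 0.62 for ACKR3, whose UPF1069 level was 1.55 times its veliparib level. For DDC the difference of UPF1069 and veliparib was 0.07, with a 95% interval of -0.02 to 0.16 (adjusted p = 0.209), so a difference of either sign within that interval was not resolved. With GC correction the difference was 0.11 and passed (limma adjusted p = 0.0175, adjusted within this pair alone, where the main value was 0.215). It was 0.11 without replicate 1 of veliparib, and it ranged from 0.0211 to 0.112 as each library was left out. Olaparib and veliparib, the phthalazinone and the benzimidazole carboxamide, differed for 4 of 4 genes, all higher with olaparib, against 31.7% of all genes higher, 27.7% lower and 59.5% in either direction. The differences were 1.37 (95% interval 1.29 to 1.44) for GRB10, 1.05 (0.96 to 1.14) for DDC, 1.07 (0.98 to 1.17) for CAMK2N1 and 0.91 (0.82 to 1.01) for ACKR3. Olaparib levels were 1.90 to 2.59 times the veliparib levels. The order of the groups was olaparib, UPF1069, DMSO and veliparib for GRB10, CAMK2N1 and ACKR3, with no call between DMSO and veliparib for GRB10 and CAMK2N1, whereas for DDC UPF1069, veliparib and DMSO followed olaparib with no call between neighbours, apart from the alternatives named for each pair.

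The siRNAs against the same target differed for all 4 genes. Between siPARP1-A and siPARP1-B the log2 difference was -0.26 for GRB10, -1.77 for DDC, 1.11 for CAMK2N1 and 1.19 for ACKR3, with limma adjusted p from 2.83e-18 to 0.000492, against 28.4% of all genes higher, 26.5% lower and 54.8% in either direction. Between siPARP2-A and siPARP2-B it was -0.44 for GRB10, 1.54 for DDC, 0.47 for CAMK2N1 and 0.32 for ACKR3, with adjusted p from 1.36e-17 to 0.000192, against 34.3% higher, 30.6% lower and 64.8% in either direction. DDC thus differed most between siRNAs of the same target, at 0.291 times its siPARP1-B level with siPARP1-A and 2.94 times its siPARP2-B level with siPARP2-A. The mean of the PARP2 siRNAs was set against the mean of the PARP1 siRNAs, where 33.3% of all genes were higher, 32.2% lower and 65.5% called in either direction. The SE, interval and adjusted p of this contrast come from the spread between duplicate libraries. They leave out the differences between siRNAs of the same target given above, so they do not measure the spread over siRNAs. GRB10 was higher by 0.53 (SE 0.041, adjusted p = 4.32e-11) and ACKR3 by 1.01 (SE 0.047, adjusted p = 2.54e-15) with the PARP2 siRNAs, and every PARP2 siRNA library was above every PARP1 siRNA library for both genes. DDC was lower by 0.26 (adjusted p = 5.05e-06), but its libraries overlapped, since siPARP1-A was low and siPARP2-A high. For CAMK2N1 the difference was -0.05 with an interval of -0.15 to 0.04 (adjusted p = 0.306). In single pairs of a PARP2 with a PARP1 siRNA all 4 genes were called in each of the 4 pairs, where 54.6% of all genes were called between siPARP2-A and siPARP1-A, 53% between siPARP2-A and siPARP1-B, 68.5% between siPARP2-B and siPARP1-A and 68.7% between siPARP2-B and siPARP1-B.

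The 4 genes were then set beside lists of other genes known to respond to androgen. Among 28 androgen-induced genes tested, 0 rose and 27 fell with olaparib, with a median log2 fold change of -1.39, against 0.00 over all genes. KLK3 fell to 180 ± 1.44 CPM with olaparib, against 1437 ± 10.8 CPM with DMSO (SD, n = 2 each; -2.99, limma adjusted p = 5.94e-24). Of 16 other androgen-repressed genes tested 11 rose and 3 fell with olaparib, with a median of 0.66. They included OPRK1, the kappa opioid receptor, at 15.1 ± 0.45 CPM with olaparib, against 4.81 ± 0.73 CPM with DMSO (1.48, adjusted p = 2.18e-11), and ID1, an inhibitor of helix-loop-helix factors, which rose by 2.34. UGT2B28 (-1.80) and UGT2B11 (-1.17) were among the 3 that fell, and UGT2B15 (1.03) and UGT2B17 (0.98) among those that rose. The UGT2B genes are near-identical copies, and whether the counting split reads between them was not tested, so all 4 values are uncertain. With UPF1069 the androgen-induced list had 2 higher and 12 lower and the androgen-repressed list 5 higher and 2 lower, with medians of -0.09 and 0.06, against -0.02 over all genes. With veliparib the counts were 5 higher and 9 lower, and 3 higher and 1 lower, with medians of -0.01 and 0.03, against 0.00.

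With the siRNAs the androgen-induced list was lower in 3 of the 4 groups while the 4 genes split. Of 30 androgen-induced genes tested, 1 rose and 27 fell with siPARP1-A (median -0.93), 1 and 28 with siPARP2-A (-1.24) and 0 and 28 with siPARP2-B (-1.64), against 8 and 11 with siPARP1-B (-0.07). KLK3 fell with siPARP2-B to 184 ± 19.3 normalised RPM, against 1295 ± 168 with siNC (SD, n = 2 each; -2.80, limma adjusted p = 8.34e-21), and DDC fell in the same libraries. Of 19 other androgen-repressed genes, 10 rose and 6 fell with siPARP1-A (median 0.42), 2 and 11 with siPARP1-B (-0.59), 8 and 8 with siPARP2-A (-0.15) and 8 and 5 with siPARP2-B (0.08). The largest of those siPARP2-B rises was CCN3 (2.83), whose siNC mean of 0.0649 normalised RPM was under the detection limit. Its siPARP2-B libraries count toward the filter. PRKCA, protein kinase C alpha, fell with all 4 siRNAs, by 0.97 with siPARP1-B to 1.46 with siPARP1-A, and it rose with olaparib (0.54). FKBP5, a chaperone induced by androgen, had log2 fold changes of -1.72 with olaparib and -4.18 with siPARP2-B, both called.

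**Figure D4:**
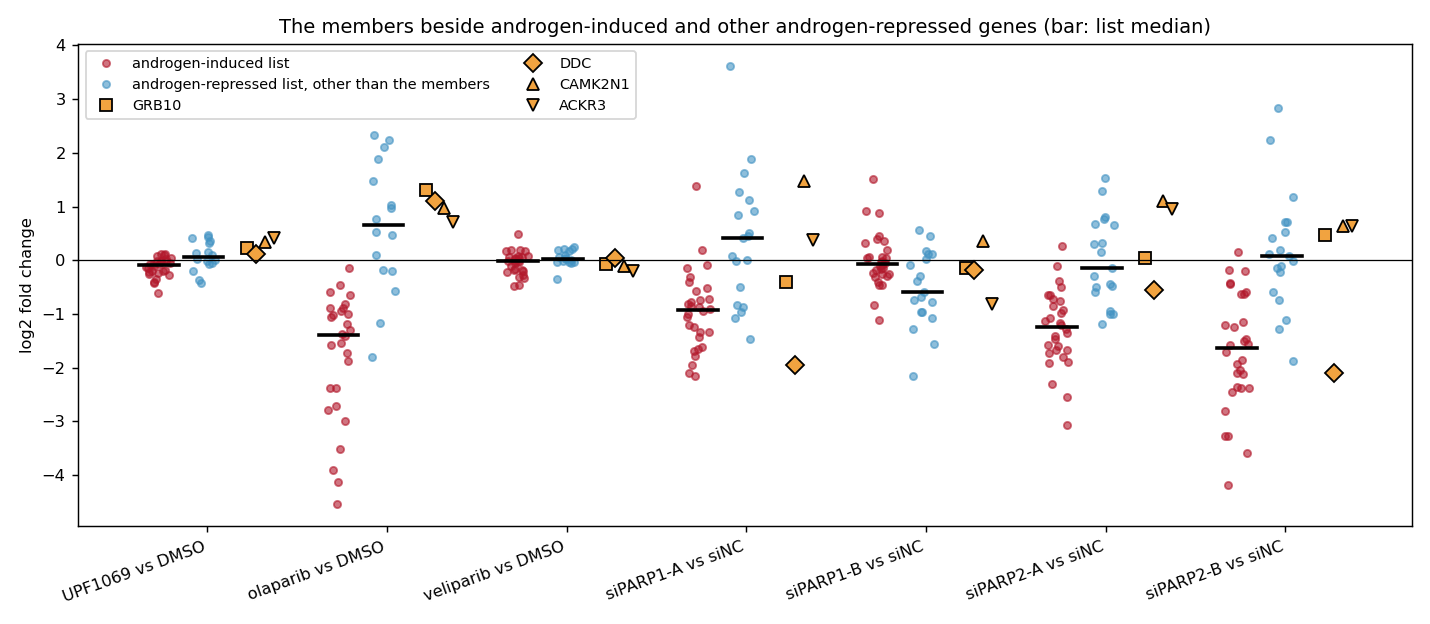
Log2 fold changes of androgen-induced genes (red), other androgen-repressed genes (blue) and the 4 members (orange) in the 7 comparisons with a control, with list medians as bars. With olaparib the members lie from 0.71 to 1.30 where the androgen-induced median is -1.39; with siPARP2-B DDC lies at -2.09 where the other members lie from 0.48 to 0.63 and the androgen-induced median is -1.64.

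The genes most like each member were found by the root mean square distance of log2(value + 1), centred on the mean of its table, over the 18 libraries and 11938 named genes that passed the filter in both tables. The 18 libraries make 9 groups and share controls, so the distances are a description. For GRB10 the nearest were C4orf29 (0.165), SEMA6A (0.176) and TM7SF2 (0.180), where the median over all genes was 0.477. C4orf29 averaged 24.6 CPM with olaparib, against 10.5 CPM with DMSO, and 25.2 normalised RPM with siPARP2-B, against 17.3 with siNC. For DDC the nearest were STARD4 (0.281), HMGN2P46 (0.296) and CASC4 (0.302), with a median over all genes of 0.756. STARD4, a carrier of cholesterol, averaged 46.1 CPM with olaparib, against 27.3 CPM with DMSO. In the siRNA table STARD4 averaged 17.0 normalised RPM with siPARP1-A and 17.0 with siPARP2-B, against 52.1 with siNC, the same low pair as for DDC. For CAMK2N1 the nearest were STXBP5L (0.198), GSTA4 (0.214) and ANTXR1 (0.216), with a median of 0.532. GSTA4, a glutathione transferase, averaged 119 with siPARP1-A, against 45.9 normalised RPM with siNC. For ACKR3 the nearest were STK3 (0.229), TNFRSF10D (0.248) and ST6GALNAC4 (0.252), with a median of 0.555. STK3, a kinase of the Hippo pathway, averaged 26.6 normalised RPM with siPARP1-B and 79.1 with siPARP2-A, against 52.6 with siNC.

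None of the 4 genes was among the 3 nearest to another by the same measure. CAMK2N1 and ACKR3 were the closest pair at 0.416, below their medians over all genes of 0.532 and 0.555. Of 11938 genes, ACKR3 was the 942nd nearest to CAMK2N1, and CAMK2N1 the 724th nearest to ACKR3. GRB10 was 0.470 from ACKR3, 0.524 from CAMK2N1 and 0.739 from DDC, its neighbour on the chromosome. DDC was 0.964 from CAMK2N1 and 0.987 from ACKR3, which ranked 11070th and 11210th of 11938. Likeness could rest on 1 table: STK3 was the nearest gene to ACKR3 over the siRNA libraries alone and ranked 2902nd over the inhibitor libraries alone, where PLEKHB1 was nearest. Over the inhibitor libraries alone the nearest genes were LINC01137 to GRB10, PKIB to DDC and SQSTM1 to CAMK2N1, and over the siRNA libraries alone they were TOP1, TMEM64 and ANP32E.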

How the data were processed

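RNA of LNCaP cells was sequenced from NEBNext Ultra libraries, per the labels' protocols. Per the submitters' processing notes, which give no roles, the tools were edgeR 3.12.0, HTSeq 0.6.1, TopHat2 2.1.0 and bcl2fastq 2.18, and the build was hg19. Whether counting used strand is not given in the sources used here. The authors deposited CPM values for the inhibitors and, for the siRNAs, a normalised signal whose columns sum to 964647 to 1122367. In both, 100% of values lay within 0.01 of a whole number of reads of the library. Groups came from the labels.

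The tables hold normalised values, so limma 3.58.1 (R 4.3.3; trend method, 2-sided) was used on log2(value + 1), which understates changes of low genes, leaving out genes whose table mean was under 1. All groups of a table shared a fit with 4 and 5 residual degrees of freedom, with Benjamini-Hochberg adjustment over all genes. Duplicates were unequally noisy. The chi-square per gene between their reads was 1.25 (UPF1069) to 5.13 (veliparib), and 2.4 (siPARP1-A) to 7.1 (siNC). The shared fit does not allow for that difference. Replicate numbers were not taken as pairs. The limma p-values rest only in part on a gene's own spread between duplicates. That spread was drawn toward a trend over all genes, with 17.64 (inhibitor) and 19.03 (siRNA) prior degrees of freedom. edgeR 4.0.16 and DESeq2 1.42.0 on recovered reads were alternatives. Besides the members, the genes named are PARP1 and PARP2, the called list genes with the largest rise or fall, the direct partners, and the 3 nearest genes of each member; other list genes were chosen after their values were seen. The members and lists were chosen with earlier results of these data known. Sequences are from RefSeq. Some genes of the lists are counted in them but not reported by name here.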

Additional observations from a re-analysis of the deposited data

Results flagged for a closer look

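ACKR3 moved in opposite directions with the siRNAs against PARP1. It averaged 98.9 normalised RPM with siPARP1-A and 42.8 with siPARP1-B, against 76.1 with siNC. Both changes were called, and the log2 difference between siPARP1-A and siPARP1-B was itself tested at 1.19 (limma adjusted p = 1.90e-13), where 54.8% of all genes differed between them. Leaving out any library of the siRNA table gave 1.11 to 1.27.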

How the results depend on the processing

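For the 28 results of a member against a control, 547 of 564 alternative values stayed on the same side of the threshold, 3 lost the call, 14 gained it and no call reversed; GRB10 with siPARP2-A, not called, spanned -0.0092 to 0.083 without each library. The changes fell on 6 results, and the other 22 changed under no alternative. For DDC with UPF1069 (0.12, adjusted p = 0.0529 by limma) the call was gained by edgeR (0.14, adjusted p = 0.0298), the stricter filter (0.12, adjusted p = 0.0480), median rescaling (0.14, adjusted p = 0.0224), a fit of those groups alone (0.12, adjusted p = 0.00425) and GC correction (0.13, adjusted p = 0.0114). Leaving out a library gave 0.106 to 0.131. CAMK2N1 with veliparib gained it with GC correction (-0.13, adjusted p = 0.0154) and spanned -0.188 to -0.0207 without each library. Calls were gained without 1 library for CAMK2N1, GRB10 and DDC with veliparib and GRB10 with siPARP1-B. GRB10 with veliparib spanned -0.0790 to -0.0449, DDC with veliparib 0.00614 to 0.0973, GRB10 with siPARP1-B -0.183 to -0.0902 and DDC with siPARP1-B -0.226 to -0.127. DDC with siPARP1-B lost its call with median rescaling (-0.11, adjusted p = 0.151). The cause of these shifts was not tested.

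The correlation of replicate differences ran from -0.06 to 0.03 over 6 pairs of inhibitor groups and from -0.14 to 0.12 over 10 pairs of siRNA groups. With duplicates alone, whether replicate numbers mark a shared batch cannot be told from these values. With the replicate number as a block the UPF1069 calls numbered 3011, against 3245 without it, and no member's call changed; with the block and GC correction together DDC with UPF1069 was at 0.13 (adjusted p = 0.0117) and CAMK2N1 with veliparib at -0.13 (adjusted p = 0.0113).

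Over all genes the UPF1069 calls numbered 2158 by DESeq2, 5041 in a fit of those groups alone and 1575 to 4914 without each library. The veliparib calls numbered 5387, and 3560 without replicate 1 of DMSO. The edgeR calls numbered 3242 for UPF1069 and 8455 for siPARP2-B. Median rescaling turned 1372 higher and 1873 lower calls with UPF1069 into 1659 and 1431, and 2088 and 3037 with siPARP1-B into 2757 and 2221. List counts equalled those of edgeR in 40 of 56 cases and moved over 1.5 times in 1. Under median rescaling and DESeq2, added after seeing the data, 7 of 112 list counts moved over 1.5 times, and the monoamine list with siPARP1-B, at 4 higher and 5 lower, turned to 5 and 4 with rescaling.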
